A study of Mus musculus with 18 samples.

Results

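The genes described are 10 immediate early and AP-1 genes chosen by name: Fos, Fosb, Jun, Junb, Jund, Egr1, Ier2, Dusp1, Zfp36 and Klf6. Of these 10 genes, 9 were in each of 3 deposited tables, which held 12679 genes for p53WT acute myeloid leukemia (AML) at 10 h, 12861 for p53null AML and 12838 for p53WT AML after 72 h. Fosb was in none of the tables and has no value below. They were named as a family with earlier results of these data known, and no threshold on a measured value decided membership. Mouse leukemia cells with MLL/ENL and Nras, either wild type for p53 (p53WT) or without it (p53null), had been transplanted into C57BL/6 mice. Mice with established leukemia received vehicle or CX-5461, which inhibits transcription by RNA polymerase I, and GFP-positive cells were sorted from the bone marrow. The 6 groups of 3 samples were vehicle and CX-5461 at 10 h in p53WT and in p53null AML, and at 72 h in p53WT AML alone. All groups carried MLL/ENL and Nras. The labels give neither the age of the mice nor the part of Trp53 that p53null cells lack, and whether the 3 samples of a group came from separate mice is not said, so that the p-values measure the spread between these samples.

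Immediate early genes are switched on within minutes of a growth factor, cytokine or stress signal, without new protein synthesis, and their short-lived transcripts fall again soon after. MAP kinases phosphorylate factors already bound at their promoters, among them SRF with its ternary complex partners, CREB and the JUN proteins themselves. FOS and JUN family proteins pair through leucine zippers into AP-1, which binds DNA. DUSP1 and ZFP36 act as brakes, the first by removing phosphates from MAP kinases and the second by binding AU-rich messages and speeding their decay. In the marrow these genes are also expressed by maturing myeloid cells.

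The table for p53WT AML at 10 h gave raw counts, with library totals between 21578685 and 48118513. Levels below are these counts scaled by TMM and given as CPM, a gene's counts relative to all counts of its library. Vehicle library 3 stood nearer to the CX libraries (Pearson r of log2 CPM across genes 0.980 to 0.985) than to vehicle library 2 (0.961), and the CX libraries agreed at 0.995 to 0.996. The 14 AML and myeloid progenitor markers were all measured, with summed levels of 14948 to 18964 CPM in vehicle and 19607 to 19817 CPM in CX libraries. Most of that sum came from the granule protein genes Mpo, Elane, Prtn3 and Ctsg, with vehicle means of 6435, 3696, 2602 and 1383 CPM, while Hoxa9 averaged 134 CPM and Kit 120 CPM in vehicle and 136 and 141 CPM in CX libraries. Red cell and neutrophil markers were also present. Summed over 15 of 17 erythroid markers, vehicle libraries 1, 2 and 3 had 5768, 19728 and 639 CPM and the CX libraries 247 to 452 CPM. Summed over all 14 neutrophil markers, the vehicle libraries had 11476, 20423 and 8120 CPM and the CX libraries 3612 to 4812 CPM. None of the measured markers was at 0, and Epor and Ahsp were the erythroid markers not in the table. In the authors' deposited tables Trp53 averaged 61.5 CPM for p53null AML, and 169 and 163 CPM for p53WT AML after 10 and 72 h. Cdkn1a, a p53 target, had log2 fold changes of 2.25, -0.03 and 1.70 in the authors' deposited tables for p53WT at 10 h, p53null at 10 h and p53WT at 72 h.

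The upstream sequence of Fos, Dusp1 and Klf6 and a short stretch of Zfp36 are shown because 3 of these genes passed the test at both times in p53WT AML and Fos is the founding AP-1 gene. The sequences come from RefSeq (GRCm38.p6), which held a window for 8 of the 10 genes. The data files were made on mm9 and give no coordinates. Each of the longer sequences runs 5′ to 3′ on the gene's strand, from 250 to 51 bases before the RefSeq start. Capitals mark matches to a cyclic AMP response element (CRE, TGACGTCA), its half-site TGACG, an AP-1-like site with a wider gap (TGANNTCA) or, in Zfp36, a CArG box, the sequence to which SRF binds.
Fos, chr12:85473640-85473839, plus strand: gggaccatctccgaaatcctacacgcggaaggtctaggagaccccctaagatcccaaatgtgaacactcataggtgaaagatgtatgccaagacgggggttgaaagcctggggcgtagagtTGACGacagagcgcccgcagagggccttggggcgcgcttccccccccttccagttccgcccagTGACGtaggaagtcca
Dusp1, chr17:26508523-26508722, minus strand: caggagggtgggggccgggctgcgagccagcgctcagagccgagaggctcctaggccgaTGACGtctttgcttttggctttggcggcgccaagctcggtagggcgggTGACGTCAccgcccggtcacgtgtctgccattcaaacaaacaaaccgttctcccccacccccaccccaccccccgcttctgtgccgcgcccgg
Klf6, chr13:5861239-5861438, plus strand: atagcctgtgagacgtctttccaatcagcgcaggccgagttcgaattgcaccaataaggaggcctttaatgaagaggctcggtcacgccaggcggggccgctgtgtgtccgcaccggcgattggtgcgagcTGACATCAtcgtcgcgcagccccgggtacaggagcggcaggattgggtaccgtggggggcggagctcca
Zfp36, chr7:28379267-28379296, minus strand: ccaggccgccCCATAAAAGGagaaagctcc

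Over the 250 bases before the start, on both strands, Dusp1 held the full CRE TGACGTCA from 143 to 136 bases before the start, a motif that 1.55% of 32851 windows of this length held. That match also counts for TGACG and for TGANNTCA, which overlap it. Fos held TGACG at 129 and 66 bases before the start, and Fosb and Junb held it once each, against 17.8% of all windows with a match. Klf6 and Jun both held TGACATCA, and Jund held TGAAATCA, all matches to TGANNTCA, which 11.9% of windows contained. A CArG box was found in Zfp36, 58 to 49 bases before the start (1.47% of windows), and in none of the other 7 windows. GENCODE places an earlier start for Zfp36, so that this box lies inside an exon of that transcript. The 7-base AP-1 site TGANTCA was in none of the 8 windows and in 6.75% of all. These matches describe letters in the windows and are not measured binding. Sequence further upstream was not searched for any gene, and Egr1 and Ier2 had no window.

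In p53WT AML at 10 h, Klf6, Zfp36 and Dusp1 fell with CX-5461 and the other 6 measured genes did not pass the test, though all 9 had negative log2 fold changes. The threshold was an adjusted p of 0.05 in edgeR's quasi-likelihood test (Benjamini-Hochberg over all genes), and 4.32% of all genes were called lower. The median log2 fold change was -0.73 over the 9 genes and 0.00 over all genes. The median of the 9 genes was -0.30 without vehicle library 2 and -0.996 without vehicle library 3. In 4 of 9 genes, namely Klf6, Zfp36, Dusp1 and Egr1, every CX library lay below every vehicle library, as in 19.1% of all genes. Fewer cells of a type and less RNA per cell cannot be told apart in bulk samples such as these.

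**Figure D1:**
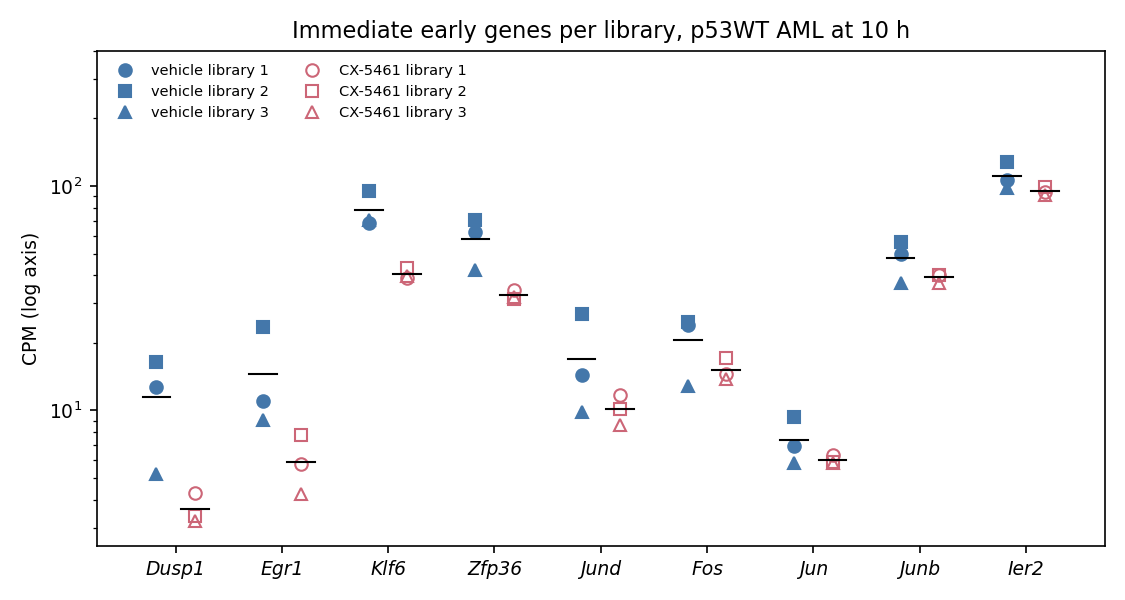
Level of each of the 9 measured genes in p53WT AML at 10 h, in CPM on a log axis. Filled blue symbols are the 3 vehicle libraries, open red symbols the 3 CX-5461 libraries, symbol shape gives the library number, and bars are group means. Vehicle library 2 is highest for all 9 genes, and the 2 groups are apart for Dusp1, Egr1, Klf6 and Zfp36.

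Klf6 (ENSMUSG00000000078), which encodes a zinc finger transcription factor of the Krüppel-like family, was at 68.7, 94.7 and 70.8 CPM in vehicle libraries 1, 2 and 3. In the CX libraries it was at 38.9, 43.3 and 39.5 CPM. The highest CX library was thus well under the lowest vehicle library. The mean went from 78.0 ± 14.4 to 40.6 ± 2.38 CPM (SD, n = 3). The log2 fold change was -0.94 (SE 0.128), with adjusted p = 0.0213 by edgeR quasi-likelihood.

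Zfp36 (ENSMUSG00000044786), the gene for tristetraprolin, was at 62.1, 70.6 and 42.0 CPM under vehicle and at 34.5, 31.3 and 32.1 CPM under CX-5461. Vehicle library 3 was the one nearest to the CX group. Its log2 fold change was -0.84 (SE 0.176), with adjusted p = 0.0412 by edgeR quasi-likelihood.

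Dusp1 (ENSMUSG00000024190), which encodes the phosphatase of p38, JNK and ERK kinases, was at 12.7, 16.4 and 5.19 CPM in the vehicle libraries. The CX libraries had 4.30, 3.40 and 3.24 CPM, so that vehicle library 3 was just above them. The log2 fold change was -1.65 (SE 0.393), and its edgeR quasi-likelihood adjusted p = 0.0498 lay next to the threshold.

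Egr1 (ENSMUSG00000038418), a zinc finger factor and a common readout of ERK signaling, was at 11.0, 23.5 and 9.04 CPM under vehicle and at 5.75, 7.76 and 4.26 CPM under CX-5461. The groups did not overlap, but vehicle library 2 was far above the other two. The log2 fold change was -1.29 (SE 0.391) with adjusted p = 0.0767 by edgeR quasi-likelihood, and -0.77 without vehicle library 2. In the authors' deposited table of the same comparison Egr1 had an FDR of 0.000869, and 4 of 9 genes were called lower there (Klf6, Zfp36, Dusp1 and Egr1) where 6.83% of all genes were.

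Among the AP-1 subunits themselves, no gene passed the test at 10 h. Fos, whose protein must pair with a JUN protein to bind DNA, was at 23.9, 24.9 and 12.9 CPM under vehicle and at 14.5, 17.1 and 13.8 CPM under CX-5461. Vehicle library 3 was the lowest of all 6. The log2 fold change of Fos was -0.45 with a 95% interval of -1.02 to 0.12. Jund, the subunit known to be expressed without a stimulus, was at 14.3, 26.8 and 9.85 CPM against 11.8, 10.2 and 8.60 CPM (log2 fold change -0.73, interval -1.55 to 0.08). Jun was at 6.94, 9.39 and 5.82 CPM against 6.35, 5.92 and 5.83 CPM, so that the groups overlapped and the vehicle libraries spread more. Its log2 fold change was -0.29 (interval -0.72 to 0.14). Without vehicle library 2 the log2 fold changes were -0.25 for Jund, -0.08 for Jun and -0.30 for Fos.

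Junb, which can restrain JUN, was at 49.5, 56.3 and 37.1 CPM under vehicle and at 40.2, 40.1 and 37.1 CPM under CX-5461 (log2 fold change -0.28, interval -0.62 to 0.05). Ier2, which encodes a small nuclear protein, was at 106, 128 and 98.1 CPM against 94.4, 99.2 and 91.4 CPM (log2 fold change -0.22, interval -0.45 to 0.01). In both genes vehicle library 2 was the highest, while vehicle library 3 was at the lower end of the CX libraries for Junb and within their range for Ier2. Without vehicle library 2 the log2 fold changes were -0.15 for Junb and -0.10 for Ier2. The adjusted p of Fos, Jun, Junb, Jund and Ier2 ranged from 0.177 to 0.314 by edgeR quasi-likelihood.

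The order of the libraries was shared by the genes. Vehicle library 2 was the highest vehicle library for 9 of 9 genes and vehicle library 3 the lowest for 8 of 9, Klf6 being the exception. The share of all genes with this order was not counted, so that the order is not shown to be particular to these genes. After each gene was centred on its mean over the 6 libraries, the mean log2 CPM of the 9 genes was 0.35, 0.79 and -0.12 in vehicle libraries 1, 2 and 3. It was -0.28, -0.27 and -0.47 in CX libraries 1, 2 and 3. Neutrophil and erythroid marker sums had the same order of vehicle libraries (2, then 1, then 3) and were lower in every CX library. B cell and megakaryocyte sums had this vehicle order too, while the other marker lists did not. In vehicle libraries 1, 2 and 3 the monocyte and macrophage sum was 2251, 2581 and 2945 CPM. T and NK cell markers summed to 57.4, 70.1 and 72.7 CPM there, and AML markers to 18964, 14948 and 16710.5 CPM. Mast cell, basophil and eosinophil markers summed to 48.5, 28.6 and 16.7 CPM, and stromal and endothelial markers to 105, 88.5 and 87.4 CPM. The edgeR quasi-likelihood test called 10 of 14 neutrophil markers (median log2 fold change -1.96) and 10 of 15 erythroid markers (median -5.57) lower, and 0 of either higher. Of the 14 monocyte and macrophage markers 2 were called lower and 12 had negative values (median -0.56), with every CX library below every vehicle library in 9. DESeq2 called 8 of them lower, where 10.6% of all genes were, and 7 were lower in the authors' deposited table, where 6.83% were. Their summed level still overlapped between the groups, at 2251 to 2945 CPM in vehicle and 2308 to 2674 CPM in CX libraries. The part of these cells in the levels of the early genes was not tested.

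**Figure D2:**
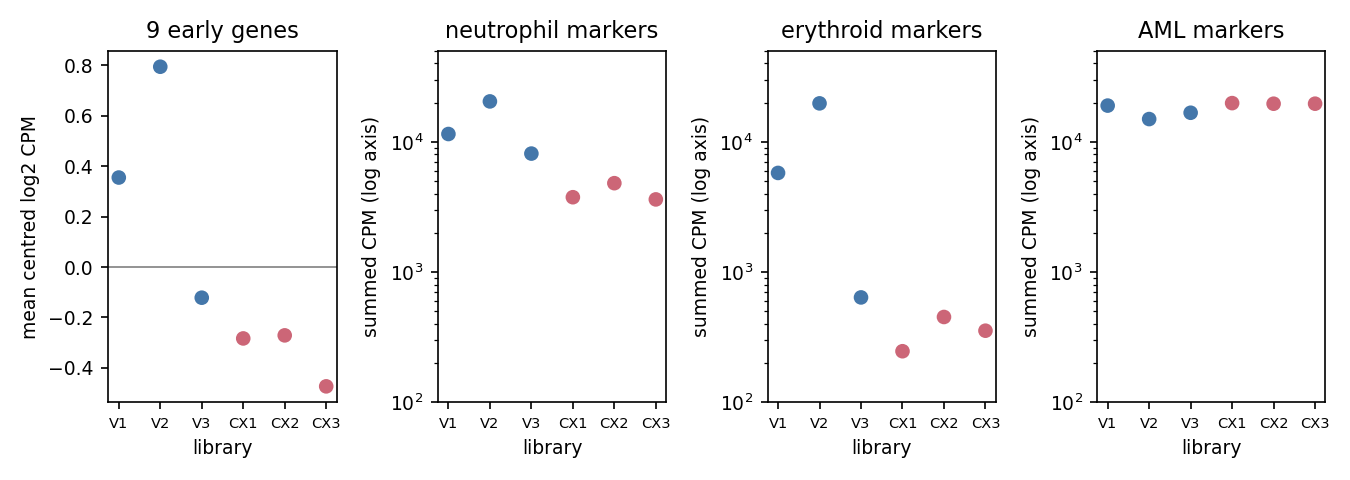
Each panel has the 6 libraries of p53WT AML at 10 h on the x axis, vehicle (V1 to V3) in blue and CX-5461 (CX1 to CX3) in red. The first panel gives the mean centred log2 CPM of the 9 early genes, and the other panels the summed CPM of neutrophil, erythroid and AML markers on a log axis. Early genes, neutrophil markers and erythroid markers are highest in V2 and, among vehicle libraries, lowest in V3, and the AML markers span 14948 to 19817 CPM.

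The calls depended on single libraries. With any single CX library left out, edgeR's quasi-likelihood test called 0 of 9 genes. Over the whole table of 12679 genes it then called 1, 0 and 0 lower and 24, 23 and 23 higher (CX library 1, 2 and 3 left out). An unadjusted p under 0.05 was met by 4 of 9 genes each time, and by 2538, 2771 and 2941 of all genes. The log2 fold changes then stayed close to those with all libraries, at -0.91, -0.998 and -0.93 for Klf6, -0.88, -0.81 and -0.83 for Zfp36 and -1.79, -1.60 and -1.57 for Dusp1. Without vehicle library 1 only Klf6 was called, without vehicle library 2 Klf6 and Zfp36, and without vehicle library 3 Klf6, Zfp36, Dusp1, Fos and Junb. Of all genes 6.79%, 5.24% and 6.63% were called lower without vehicle library 1, 2 and 3. Limma-voom called only Klf6, and 2.60% of all genes lower.

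The genes whose levels over the 6 libraries were most like the mean of the 9 early genes were sought among 10372 other genes that averaged 5 CPM or more. They were Gsdme (Pearson r = 0.997), which encodes the pore-forming gasdermin E, Ramac (0.996), Ppp1r3d (0.996), a glycogen-targeting subunit of protein phosphatase, Lpcat2 (0.994), an enzyme of phospholipid remodeling, and H2-Aa (0.993), which encodes an MHC class II chain. H2-Aa went from 13.5, 38.4 and 4.70 CPM in the vehicle libraries to 2.90, 2.30 and 2.04 CPM in the CX libraries, a wider span than that of any of the early genes. The r values are a description over 6 libraries that share the treatment groups.

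In p53null AML at 10 h none of the 9 genes passed an FDR of 0.05 in the authors' deposited edgeR table, where 0.0389% of all genes were called lower and 0.148% higher. At an unadjusted p under 0.05 there were 3 genes, Ier2 and Egr1 lower and Jun higher, while 6.07% of all genes met that mark. The median log2 fold change of the 9 genes was 0.02, with 6 positive and 3 negative values, against 0.00 over all genes. Without values per library no other tool could be run on this table.

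In p53null AML the authors' deposited table gave Ier2 a log2 fold change of -0.26 (FDR 0.0916) and Egr1 one of -0.60 (FDR 0.164). In the same authors' deposited table Jun had 0.32 (FDR 0.658) and Junb -0.17 (FDR 0.891). The 3 genes that fell in p53WT AML by the quasi-likelihood test had values near 0 in this authors' deposited table, namely 0.14 for Klf6, 0.01 for Zfp36 and 0.02 for Dusp1. Egr1, the other gene called lower in the authors' deposited p53WT table, was the one at -0.60 here (unadjusted p = 0.000802). Fos (0.04) and Jund (0.03) were also near 0 there. Of the 14 neutrophil markers 0 passed the FDR in p53null AML, with a median of -0.02 in the authors' deposited table. Only 7 of 17 erythroid markers were in that table. Whether the change differed between p53WT and p53null AML was not tested, since the p53null table holds no counts.

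**Figure D3:**
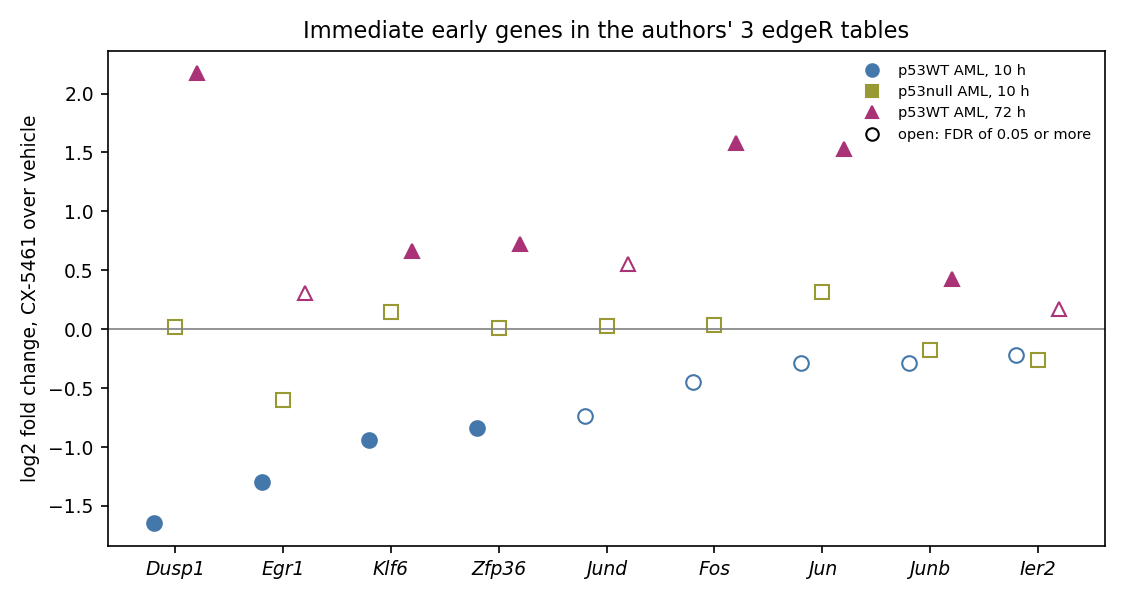
Log2 fold change, CX-5461 over vehicle, of the 9 measured genes in the authors' 3 deposited tables. Circles are p53WT and squares p53null AML at 10 h, triangles are p53WT AML at 72 h, and filled symbols have an FDR under 0.05. All circles lie below 0 and all triangles above it, with 4 circles, 0 squares and 6 triangles filled.

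In p53WT AML at 72 h the measured genes had higher values with CX-5461 than with vehicle, if this table has the same orientation as that at 10 h, which could not be checked without counts. Of 9 genes, 6 rose at an FDR under 0.05 and 0 fell in the authors' deposited edgeR table, where 16.1% of all genes were called higher and 15.1% lower. All 9 log2 fold changes were positive, with a median of 0.67 against -0.01 over all genes. The 72 h groups had vehicle samples of their own, so that the 10 h and 72 h values share no control.

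Among the AP-1 subunits at 72 h, the authors' deposited table gave Fos a 2.98-fold rise (log2 fold change 1.58, FDR 0.0177) and Jun a 2.89-fold rise (1.53, FDR 0.0401). Junb rose 1.34-fold in the authors' deposited table (0.43, FDR 0.00442). Jund, at 0.55 (FDR 0.0872), did not pass there. The larger changes of Fos and Jun thus came with weaker FDR values than the smaller change of Junb, and the spread between samples behind them is unknown.

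Of the other early genes, Dusp1 rose 4.51-fold at 72 h in the authors' deposited table (log2 fold change 2.17, FDR 0.00275). Zfp36 rose 1.65-fold (0.73, FDR 0.00208) and Klf6 1.59-fold (0.67, FDR 3.24e-07) in the same authors' deposited table. Those 3 genes were also the ones that fell at 10 h by the quasi-likelihood test, while the authors' deposited 10 h table called Egr1 lower as well. Egr1 (0.30, FDR 0.357) and Ier2 (0.17, FDR 0.158) did not pass in the authors' deposited table at 72 h. At FDR under 0.01 the genes called were Dusp1, Zfp36, Klf6 and Junb.

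Neutrophil and erythroid markers were also higher at 72 h. Of 14 neutrophil markers in the authors' deposited table, 13 rose and 0 fell (median log2 fold change 0.96). Of 16 erythroid markers there, 10 rose and 0 fell (median 1.26). Markers of mast cells, basophils and eosinophils rose in 6 of 6 measured, at a median of 2.41 in the authors' deposited table. AML and myeloid progenitor markers had 2 higher and 7 lower there, at a median of -0.20. Medians at 72 h in the authors' deposited table were 0.27 for monocyte and macrophage (14 genes), 0.76 for B cell (4 genes) and 0.92 for megakaryocyte markers (4 genes). At 10 h the quasi-likelihood medians of B cell, megakaryocyte, and mast cell, basophil and eosinophil markers were -1.41, -0.72 and -0.69, over 3, 4 and 3 genes. In both p53WT comparisons the early genes thus had the sign of the median of 7 of 9 marker lists. The exceptions were the AML list and, at 72 h, the stromal and endothelial list (-0.26). For T and NK cells that median lay between 2 measured genes of opposite sign in both comparisons. Their summed level at 10 h was 57.4 to 72.7 CPM in vehicle libraries and higher, at 91.7 to 93.1 CPM, in CX libraries. The part of all these cells in the levels of the early genes was not tested. Whether the 72 h change differed from that at 10 h was not tested either, since the 72 h table holds no counts.

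Levels of different genes were compared per kilobase of exon, with lengths from GENCODE M21, which is not the annotation the authors counted on. In the vehicle libraries of p53WT AML at 10 h, Ier2 had the highest level, 72.6 CPM per kb (64.5 to 83.8), above every other gene in all libraries. Junb (20.7 CPM per kb), Klf6 (17.8) and Zfp36 (16.8) followed, then Jund (10.2) and Fos (8.75). Each of these 5 overlapped its neighbor in the order over the vehicle libraries. Dusp1 (3.45), Egr1 (3.24) and Jun (2.31) formed the lowest set, overlapping among themselves and lying below the lowest Fos library.

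Mean levels over the samples of each authors' deposited table differed most for Egr1, which averaged 10.3 CPM for p53WT at 10 h, 51.7 CPM for p53null at 10 h and 6.76 CPM for p53WT at 72 h. Jun averaged 6.76, 19.7 and 17.1 CPM and Jund 13.6, 23.8 and 15.4 CPM in the authors' deposited tables in that order. Zfp36 was at 45.4, 46.8 and 45.9 CPM and Ier2 at 103, 106 and 97.9 CPM in the authors' deposited tables, much closer to each other. The tables were normalized separately and these means have no error, so that no difference between leukemias was tested.

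Parts of some genes overlap exons of another gene on the opposite strand in GENCODE M21, and the library kit does not mark strand. For Jund 52.6% of exon bases lie under the antisense gene Gm11175, for Junb 7.52% under Prdx2, for Jun 7.28% under Junos and for Zfp36 3.60% under Gm44710, so that their counts are uncertain to that extent. Prdx2, a peroxiredoxin gene that is abundant in red cells, was at 105, 201 and 69.2 CPM under vehicle and at 63.7, 64.9 and 72.1 CPM under CX-5461. Its vehicle libraries had the same order as those of Junb, Fos, Egr1 and Ier2. Junos was at 13.6, 23.7 and 17.1 CPM under vehicle and at 11.7, 13.7 and 9.92 CPM under CX-5461. The authors' deposited 10 h table called Prdx2 (log2 fold change -0.90, FDR 0.0214) and Junos (-0.62, FDR 0.0288) lower in p53WT AML. By edgeR quasi-likelihood neither passed (adjusted p 0.130 and 0.106). At 72 h the authors' deposited table had Junos at 0.44 (FDR 0.00865) and Prdx2 at 0.02 (FDR 0.883). The part of reads from these genes in the counts of Junb and Jun was not tested. Klf6, Egr1, Ier2 and Fos overlapped no other gene's exons, and Dusp1 shared 11 bases with Ergic1.

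Around the 9 genes, few genes of the wider early response were called by edgeR's quasi-likelihood test in p53WT AML at 10 h, at shares to be read against the 4.32% of all genes called lower. It called 0 of 8 other AP-1 and bZIP partners. Of these 8, 1 had an unadjusted p under 0.05, as had 3979 of all 12679 genes. DESeq2, limma-voom and the edgeR exact test called 0 of the 8. Of 12 other early transcription factors 1 was called, and of 15 feedback regulators 1. Of the feedback regulators 6 were lower by DESeq2, where 10.6% of all genes were, and 6 in the authors' deposited table, where 6.83% were. Klf2, a factor of quiescence and trafficking, fell from 15.2 ± 6.35 to 5.54 ± 0.800 CPM (SD, n = 3, log2 fold change -1.45, SE 0.304). Rgs2, a regulator of G protein signaling, fell from 169 ± 17.1 to 129 ± 4.80 CPM (-0.39). The medians of the 3 lists were -0.09, -0.23 and -0.39.

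Upstream of the early genes, edgeR's quasi-likelihood test called 1 of 23 kinases and SRF cofactors lower at 10 h in p53WT AML. That share was near the 4.32% of all genes. DESeq2 called 5 lower and 2 higher, where 10.6% and 7.57% of all genes were, and the authors' deposited table called 0. Every CX library lay below every vehicle library in 10 of the 23, against 19.1% of all genes, and above in 3. Rps6ka4, which encodes the histone and CREB kinase MSK2, fell by 0.28, while Srf (0.20) and the ERK1 gene Mapk3 (-0.25) had adjusted p values of 0.0562 and 0.0524 by edgeR quasi-likelihood. Heat shock genes, which answer stress through HSF1, had the opposite sign. Of 11 measured 3 rose, the chaperone genes Hspa8 (0.57), Hspd1 (0.42) and Hspe1 (0.34), 0 fell, and all 11 values were positive with a median of 0.41, where 3.78% of all genes were called higher. With any single CX library left out, 0 genes of these 5 lists were called. Over all 12679 genes 1, 0 and 0 were then lower and 24, 23 and 23 higher (CX library 1, 2 and 3 left out).

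In p53null AML the authors' deposited table called 1 gene over these 5 lists, the MAP kinase phosphatase gene Dusp2, which fell by 0.43 (FDR 0.0079). Of p53null heat shock genes 0 of 11 passed in the authors' deposited table. At 72 h in p53WT AML more genes passed, in the lists as over all genes (16.1% higher and 15.1% lower). The authors' deposited table had 4 of 8 AP-1 and bZIP partners higher (Fosl2 0.41, Jdp2 0.33, Mafg and Atf2) and 2 lower (Batf2 and Maff). Of 11 other early transcription factors 3 rose, namely Ier5 (0.97), Klf2 (1.10) and Nr4a1 (0.42), and Myc fell by 0.77 in the authors' deposited table.

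Feedback regulators rose in 7 of 15 and fell in 1 at 72 h in the authors' deposited table. Those higher were the phosphatase genes Dusp5 (0.81) and Dusp6 (0.67), both brakes on ERK, Zfp36l1 (2.06), a relative of Zfp36, the pseudokinase gene Trib1 (1.96), Gadd45g (1.02), Btg2 and Nfkbia. Gadd45b fell by 0.56 in the authors' deposited table. Of 23 kinases and SRF cofactors 7 rose, among them Srf (0.27) and its coactivator genes Mrtfa (0.48) and Mrtfb (0.46), and 4 fell, among them the ternary complex factor gene Elk3 (-0.79), in the authors' deposited table. The 4 lower genes are near the 15.1% of all genes called lower. Heat shock genes had 3 of 11 higher and 1 lower there.

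**Figure D4:**
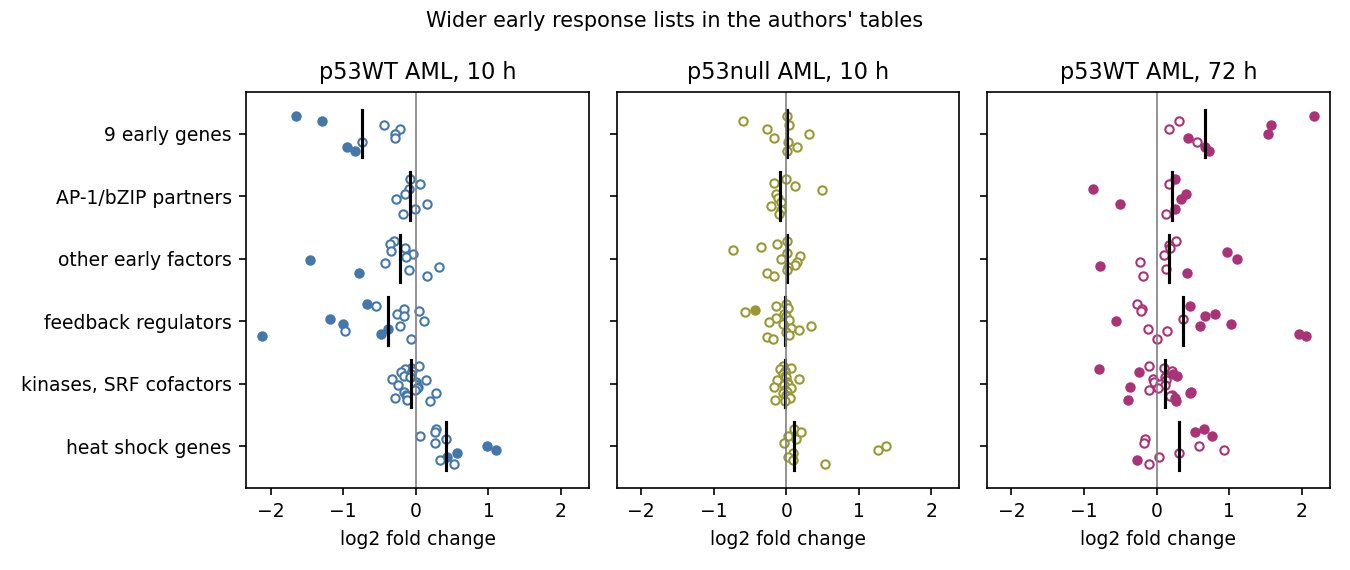
Log2 fold changes, CX-5461 over vehicle, in the authors' 3 deposited tables for the 9 early genes and 5 wider lists. Each point is a gene, filled where the FDR is under 0.05, and the black bar is the list's median. The medians of the 9 early genes are -0.74 for p53WT at 10 h, 0.02 for p53null at 10 h and 0.67 for p53WT at 72 h.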

How the data were processed

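RNA was sequenced from 18 samples. The submitters' processing notes list the build mm9 and the tools Bowtie, HTSeq, edgeR and CASAVA (1.8.2). Their settings and the annotation are not given in the sources used here. The deposited values are raw counts per gene (p53WT AML at 10 h only) and, per the file headers, the authors' log2 fold changes, log2 mean CPM, p-values and FDR. Count columns name the arm and a number from 1 to 3 while titles carry 3 to 5, so columns were tied to groups only. Positive values in the authors' log2 fold changes mean higher with CX-5461, as checked on the counts (Pearson r across genes 1.00), and the other 2 tables were read the same way, which could not be checked since they hold no counts.

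Counts were scaled by TMM and fitted on all 12679 genes with treatment as the only term by edgeR 4.0.16 (quasi-likelihood, two-sided, Benjamini-Hochberg) in R 4.3.3. Log2 CPM used a prior count of 2. DESeq2 1.42.0, limma-voom (limma 3.58.1), the edgeR exact test, other scalings, filters and left-out libraries were alternatives. The script was tested on simulated data. Symbols matched 12237, 12366 and 12362 IDs. The genes, lists and tests were chosen with earlier results of these data known. Named were the 9 measured genes, list genes passing in any comparison or, failing that, the 3 with the smallest p, and the 5 genes most alike. Not every passing list gene is printed.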

Additional observations from a re-analysis of the deposited data

How the results depend on the processing

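All 144 log2 fold changes of the 9 genes under 16 alternatives at 10 h in p53WT AML were negative, and 122 kept their side of the threshold, while 16 lost a call and 6 gained it. The alternatives reused the same libraries and are not independent of each other. With edgeR's own expression filter all 12679 genes stayed and the values were unchanged. The number of genes called lower was 3 with all libraries, 1 by limma-voom, and ranged from 0 to 5 with a library left out. By DESeq2 and the edgeR exact test it was 4, by robust estimation or library size alone 2. Over all genes, limma-voom called 330 lower and 394 higher and DESeq2 1346 and 960, against 548 and 479. The share of all genes called lower was 8.05% by the exact test, 3.83% by robust estimation and 3.64% by library size alone. Deviations from the group mean correlated at r = 0.34, 0.19 and 0.00 between same-numbered columns, and at -0.29 to 0.11 between the others. Columns 1 and 2 matched their own number best. The deviations of vehicle library 3 matched those of CX library 1 best, at only r = 0.09. No label states a pairing, and the numbers were not taken as pairs. A replicate block gave 4 genes called (Klf6, Dusp1, Egr1, Zfp36), and 857 lower and 679 higher over all genes. At an unadjusted p under 0.05, 3 genes passed in p53null AML in the authors' deposited table against 0 by FDR. The median log2 fold change of the 9 genes ranged from -0.996 to -0.30 with a library left out, and the minimum of 5 CPM removed none of them. Depth is unknown for the tables without counts, where no library could be left out. The causes of lost calls were not tested.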
